A study of Mus musculus with 6 samples.

Results

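Box H/ACA small nucleolar RNAs (snoRNAs) were counted in small RNA libraries of NIH 3T3 cells, an established line of mouse embryo fibroblasts. The members were taken by name as every gene symbol that begins with Snora and a digit. This rule found 36 of the 23420 genes in the tables and used no measured value. All cells of both groups had been transfected with a pEGFP-NXF3 plasmid, so no untransfected or bait-free group is present. The input group is RNA taken without antibody (3 libraries), and the pulldown group is RNA recovered with an anti-GFP antibody (Abcam ab290) on protein A beads that bind the NXF3-GFP fusion (3 libraries). Per the labels the libraries came from 3 independent experiments, and gel products of 30 to 375 nucleotides were sequenced after 14 PCR cycles. The labels do not give the species of the NXF3 insert, and a pulldown from a transfected pool reports on overexpressed, tagged protein. NXF3 belongs to the nuclear export factor family, and the series title places the question in where snoRNAs are located in the cell.

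Box H/ACA snoRNAs guide the conversion of uridine to pseudouridine in ribosomal RNA. Each folds into hairpins joined by a hinge that carries box H (ANANNA, where N is any base), and each ends in an ACA triplet just before its last bases. In the nucleus the RNA is bound by dyskerin (Dkc1, the pseudouridine synthase), Nop10, Nhp2 and Gar1. Most mammalian members are cut out of introns of host genes, many of which encode ribosomal proteins or translation factors. Box C/D snoRNAs, the other large class, guide ribose methylation.

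The sequences were checked against the class name. All 36 symbols matched a transcript of GENCODE M21 (mouse build GRCm38), and RefSeq lists all 36 as snoRNA. Their GENCODE lengths ran from 121 to 196 nucleotides with a median of 132, against a median of 80 for 73 of the 74 box C/D symbols in the tables that matched. The letters ACANNN closed 30 of the 36 members (83.3%) and 0 of the 73 box C/D transcripts (0.0%). In 3 more members, Snora17, Snora28 and Snora74a, the ACA stood 2 bases from the annotated end. In Snora47 it stood 4 bases from the end, and Snora44 and Snora81 had ATA at the usual place. ANANNA was found between 40% and 60% of the RNA's length in 32 members. Where a member held several matches, the one with the most unpaired bases in the minimum free energy structure was kept. All 6 bases of the kept match were unpaired in 18 members, a count that this choice can only raise. No background rate of unpaired stretches was computed. Of the 36 predicted structures, 29 had 2 hairpin loops. ANANNA is a loose pattern, read on the RNA strand, and 84.9% of the box C/D transcripts also held it somewhere, so a match describes letters only.

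The member with the highest mean level in input is shown first, 5′ to 3′, with T for U, from the GENCODE M21 transcripts. Capitals mark the kept ANANNA match and the ACA. Only 3 of the 6 marked ANANNA bases were unpaired in the predicted structures of Snora28, Snora43, Snora44 and Snora61. Those of Snora28, Snora43 and Snora61 had 3 hairpin loops. Snora28 lies at chr12:111540941-111541067 (plus strand) within Eif5, in GRCm38. The submitters' processing notes name mm9, and no coordinate was converted.
Snora28: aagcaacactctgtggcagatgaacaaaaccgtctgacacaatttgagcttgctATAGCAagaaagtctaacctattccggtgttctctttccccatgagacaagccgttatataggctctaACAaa

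A second set shows members that share a host gene or lie side by side, so that levels can be compared between RNAs of the same host or of neighbouring positions. Snora16a, Snora44 and Snora61 lie in Snhg12 on chromosome 4, and Snora34 and Snora2b lie in Kansl2 on chromosome 15. Snora17 and Snora43 lie 1204 bases apart on the minus strand of chromosome 2, where GENCODE M21 has no spanning gene on that strand. GENCODE M21 has 2 models under the symbol Snora16a and 2 under Snora43. For each symbol, the model closest to RefSeq's in length was used for place and sequence. Counts are per symbol, so reads of the 2 models cannot be told apart.
Snora16a: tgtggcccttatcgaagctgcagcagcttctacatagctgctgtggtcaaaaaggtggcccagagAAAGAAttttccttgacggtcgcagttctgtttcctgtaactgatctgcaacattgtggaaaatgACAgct
Snora44: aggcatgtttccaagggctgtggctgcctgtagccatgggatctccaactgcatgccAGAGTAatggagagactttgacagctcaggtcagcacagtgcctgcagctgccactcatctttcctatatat
Snora61: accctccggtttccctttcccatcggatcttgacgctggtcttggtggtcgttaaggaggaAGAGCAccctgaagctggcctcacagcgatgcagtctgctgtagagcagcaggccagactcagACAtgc
Snora34: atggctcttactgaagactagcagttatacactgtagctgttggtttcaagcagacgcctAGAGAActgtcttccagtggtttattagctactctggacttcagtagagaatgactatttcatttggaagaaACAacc
Snora2b: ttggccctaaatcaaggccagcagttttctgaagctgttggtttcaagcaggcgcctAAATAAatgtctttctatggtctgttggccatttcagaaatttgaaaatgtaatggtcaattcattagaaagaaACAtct
Snora17: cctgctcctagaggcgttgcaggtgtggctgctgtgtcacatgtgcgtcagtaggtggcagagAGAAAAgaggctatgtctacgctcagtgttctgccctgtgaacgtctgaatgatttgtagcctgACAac
Snora43: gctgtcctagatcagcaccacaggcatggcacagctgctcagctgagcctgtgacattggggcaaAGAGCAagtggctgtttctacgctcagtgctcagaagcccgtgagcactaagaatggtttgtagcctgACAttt

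Snora2b and Snora34 share the run agctgttggtttcaagcag of 19 bases, the longest of 595 member pairs compared without Snora74a. Snora17 and Snora43 share tttgtagcctgaca, 14 bases at their 3′ ends, the next longest, while the median pair shared 7. A short read from such a run could be placed in either member, and the sources used here do not say how shared reads were counted. RefSeq gives shorter models than GENCODE for 28 of the 36 members, down to 56 bases, and which models were counted is not known.

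The libraries differed widely in depth and in make-up. Gene counts ran from 1884117 to 3935088 per input library and from 769570 to 6946284 per pulldown library. TMM factors (trimmed mean of M-values), which rescale each library to the bulk of its genes, ran from 0.609 in pulldown 2 to 1.95 in pulldown 1. All 12 fibroblast markers had reads, 10 of them were tested and 0 were called by edgeR, 0 of 5 epithelial markers had any, and the leukocyte list had 2 reads in all 6 libraries together. The adipocyte list had 38 reads in all. The study compares the RNA composition of pulldown and input, so the recovery of a snoRNA per cell, and fewer cells against less RNA per cell, cannot be told apart.

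Of the 36 members, 32 had reads. Reads were found in all 6 libraries for 24 members, and 23 passed the low-count filter of the test. Snora19, Snora24, Snora26 and Snora35 had 0 reads in every library, which allows up to 3 counts, or 0.432 to 3.90 CPM (counts per library total scaled to a common size, here without TMM). Snora35 is a snoRNA of the serotonin receptor gene Htr2c and is known from brain, and Snora24 is a guide to small-subunit rRNA. The 9 members with reads that did not pass had 2 to 37 counts summed over 6 libraries, 115 in all. Just outside the filter, Snora15 had 4, 6 and 13 counts from input 1 to input 3, against 0, 9 and 5 from pulldown 1 to pulldown 3. Just inside it, Snora65 had 10, 10 and 24 counts in input libraries against 4, 20 and 4 with NXF3 pulldown.

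Snora28 and Snora68 together made up most of the class. Snora28, a guide to small-subunit rRNA, had 8149, 4193 and 11282 counts from input 1 to input 3, against 2785, 16101 and 5143 from pulldown 1 to pulldown 3. Snora68, a guide to large-subunit rRNA, had 4935, 4534 and 12223 counts in input libraries against 3299, 12152 and 4358 with NXF3 pulldown. These 2 RNAs took 87.7% ± 1.73 of H/ACA counts in input libraries against 88.9% ± 1.09 with NXF3 pulldown (SD, n = 3 each), with every library between 86.1% and 90.1%. The other 34 members shared the rest, 671 to 3874 counts per library.

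Which of the pair led changed from library to library. The ratio of Snora28 to Snora68 counts was 1.65, 0.925 and 0.923 from input 1 to input 3, against 0.844, 1.33 and 1.18 from pulldown 1 to pulldown 3, so each was ahead in 3 of 6 libraries. Per 100 nucleotides of GENCODE length, their mean levels in input were 1951 and 1704 CPM. RefSeq models, shorter for both, were not used for this. The order of this pair is within the spread between libraries. A wide gap followed: per 100 nucleotides the next member, Snora43, had a mean of 115 CPM in input, and Snora52 had 57.8.

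**Figure D1:**
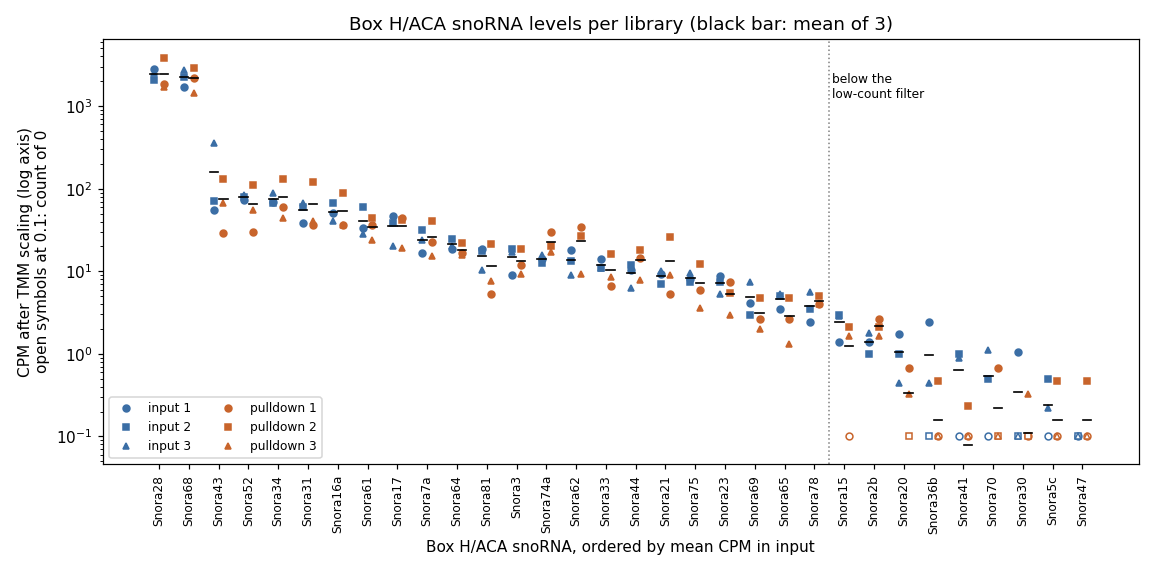
Levels of the 32 box H/ACA snoRNAs with reads, as CPM after TMM scaling on a log axis, with 1 point per library (blue input, orange pulldown), black bars for means of 3, and open symbols for counts of 0. Snora28 and Snora68 are at 1441 CPM or more in every library, and no other member exceeds 354 CPM in any.

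The next 7 members made up a middle tier, with a mean of at least 100 counts in input. In order of mean input CPM they were Snora43, Snora52, Snora34, Snora31, Snora16a, Snora61 and Snora17. Snora52, a guide to large-subunit rRNA that lies inside an annotated exon of Rplp2, had 209, 161 and 381 counts in input libraries against 45, 471 and 168 with NXF3 pulldown. In CPM its input libraries were close, at 72.4, 80.4 and 84.9, and its pulldown libraries were far apart, at 30.0, 111 and 55.6. Snora34, another large-subunit guide, had 69.7, 67.5 and 88.2 CPM in input libraries against 60.7, 131 and 43.7 with NXF3 pulldown. From its counts, 201, 135 and 396 in input and 91, 553 and 132 with pulldown, Snora34 ranked close to Snora52. In TMM-scaled CPM, both of these RNAs were highest in pulldown 2, and the input values lay inside the pulldown range. Snora31, in Tpt1, had 112, 121 and 302 counts in input libraries against 55, 512 and 123 with NXF3 pulldown. Ordered by counts within each library, Snora34 held ranks 3 to 5 of the class and Snora16a ranks 6 to 7. Snora43 ranged from 3 to 11 and Snora17 from 4 to 11. Dividing by GENCODE length kept the rank in input of 17 of the 23 tested members and moved none by more than 3 places. RefSeq lengths, such as 62 against 130 bases for Snora61, were not used and could move ranks further.

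Below this tier stood 14 tested members with a mean under 100 counts in input. Snora7a, a large-subunit guide in Rpl32 with close relatives in the genome, led them with 48, 63 and 107 counts in input libraries against 34, 174 and 46 with NXF3 pulldown. Their mean input levels fell from 24.0 CPM for Snora7a to 3.83 CPM for Snora78. Neighbours in this order mostly did not differ beyond their spread, for example Snora74a at 14.1 ± 1.55 CPM and Snora62 at 13.6 ± 4.73 CPM in input (SD, n = 3 each).

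Members of the same host gene differed in level, by counts per symbol, where Snora16a has 2 GENCODE models. In Snhg12, Snora16a had 146, 133 and 183 counts in input libraries against 54, 374 and 109 with NXF3 pulldown. Snora61 had 96, 120 and 126 counts in input libraries against 54, 185 and 73 with NXF3 pulldown. Snora44, a small-subunit guide, had 30, 24 and 28 counts in input libraries against 22, 76 and 24 with NXF3 pulldown. Snora44 was therefore the lowest of the 3 in every library, at 1 read per 2.45 to 6.54 reads of Snora16a. After division by GENCODE length this was 2.33 to 6.20. In Kansl2, Snora34 had 22.8 to 67.5 reads for each read of Snora2b, which had only 2 to 9 counts per library. The host Snhg12 itself had 0, 2 and 1 counts in inputs 1 to 3. Snora34 and Snora2b differ by this much although they share the 19-base run printed above.

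Snora43, also a symbol with 2 GENCODE models, stood apart in 1 input library. It had 161 counts in input 1 (exact Poisson 95% interval 137 to 188), 141 in input 2 (119 to 166) and 1588 in input 3 (1511 to 1668). In pulldowns 1 to 3 it had 44, 550 and 201 counts. The intervals cover counting error alone. In CPM the input values were 55.8, 70.5 and 354, and pulldowns 1 to 3 had 29.3, 130 and 66.5. Input 3 was thus 6.34 times the lowest input library, the widest such ratio of the 23 tested members. Its neighbour Snora17, with which it shares the 3′ run, had 134, 77 and 90 counts in input libraries against 67, 175 and 58 with NXF3 pulldown. Input 3 was the lowest input library for Snora17 in CPM, at 20.05 against 46.4 and 38.5.

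In TMM-scaled CPM, the spread between replicates was wider in the pulldown for most members. The SD of log2 CPM over 3 libraries had a median of 0.36 in input libraries against 0.67 with NXF3 pulldown, and was larger in the pulldown for 18 of 23 tested members. Over all genes tested the medians were 0.39 and 0.44, and over 62 box C/D snoRNAs 0.45 and 1.11. Snora52 had SDs of 0.12 in input libraries against 0.95 with NXF3 pulldown, and Snora21, in Rpl23, 0.28 and 1.17. Snora43 went the other way with 1.45 and 1.08, as did Snora78 with 0.60 and 0.18. After TMM scaling, pulldown 2 was the highest pulldown library for 19 of the 23 members and pulldown 3 the lowest for 16. As a percent of gene counts, without TMM, pulldown 1 was highest for 18 and pulldown 2 for 5. Which pulldown library was richest in H/ACA snoRNAs therefore depended on the scaling.

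**Figure D2:**
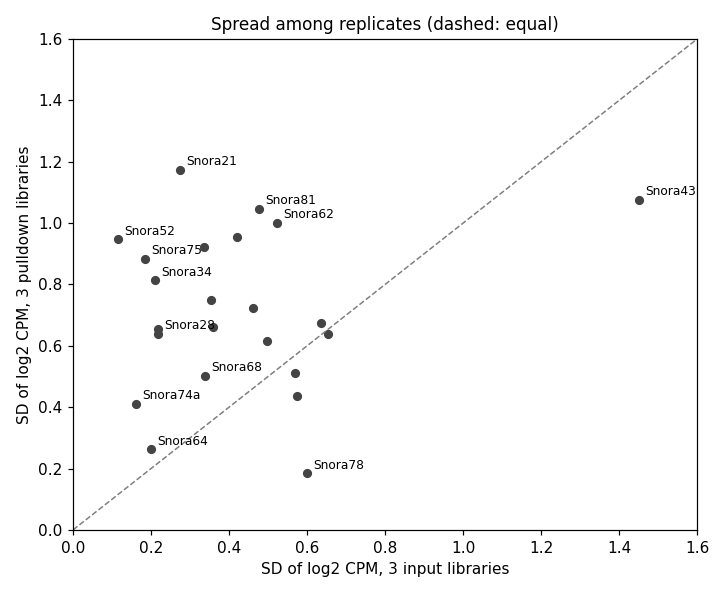
Spread of each of the 23 tested box H/ACA snoRNAs, as the SD of log2 CPM over 3 input libraries (horizontal axis) against that over 3 pulldown libraries (vertical axis), with 1 point per member and a dashed line of equality. Points above the line, 18 of 23, varied more in the pulldown after TMM scaling, and Snora43 lies at 1.45 on the input axis.

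As a class, H/ACA snoRNAs were a small and variable share of both kinds of library. They took 0.382%, 0.530% and 0.694% of gene counts from input 1 to input 3, against 0.878%, 0.463% and 0.327% from pulldown 1 to pulldown 3. The widest exact Clopper-Pearson 95% interval ran from 0.857% to 0.899%, in pulldown 1. Intervals and floors cover counting error only, since PCR reads without molecular identifiers are not independent molecules. Pulldown 1 was above and pulldown 3 below all input libraries. Pulldown minus input came to 0.0207 percentage points, which is below the SD of either group (permutation test, exact and two-sided, p = 1.0, n = 3 each, adjusted over 2 tests 1.0, smallest possible p 0.1). Without pulldown 1 the difference was -0.14 points and without input 1 it was -0.056, so its sign rested on single libraries. Without Snora28 and Snora68, a choice made after the data were seen, the other 34 members took 0.0677% ± 0.0283 of input and 0.0601% ± 0.0253 of pulldown counts (SD, n = 3 each), a difference of -0.0076 points.

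Measured against the other snoRNA class, the result was alike. There were 206, 137 and 118 box C/D reads per H/ACA read from input 1 to input 3, against 79.3, 174 and 237 from pulldown 1 to pulldown 3. The groups overlapped, and pulldowns 1 and 3 were the extremes of all 6 libraries. The mean log2 ratio of H/ACA to C/D counts was -7.22 ± 0.42 in input and -7.21 ± 0.81 in the pulldown (difference 0.0062, exact two-sided permutation p = 1.0, n = 3 each). Without pulldown 1 the difference was -0.45, and without pulldown 3 it was 0.34. The sums are mostly reads of the most abundant RNAs. With the median CPM of the tested members of each class in place of the sum, the difference was 0.38 (exact two-sided permutation p = 0.9).

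**Figure D3:**
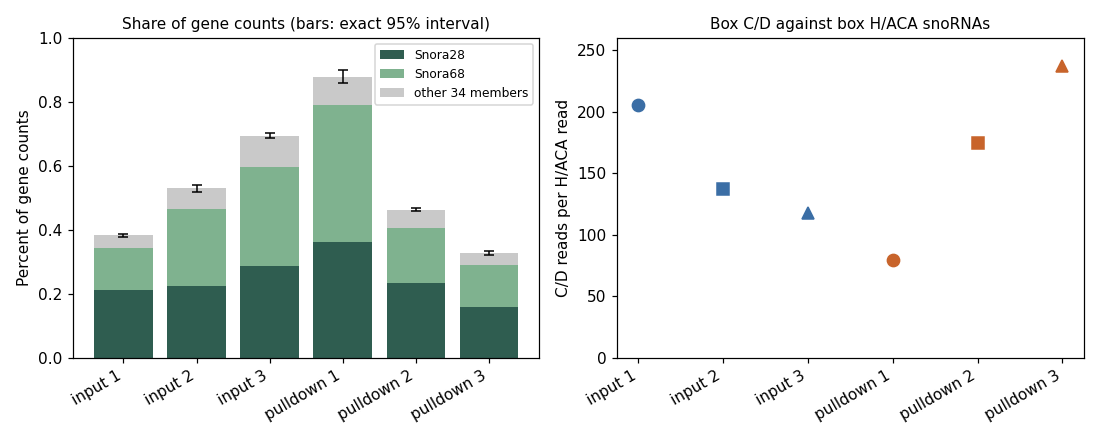
Left, percent of gene counts taken by Snora28, Snora68 and the other 34 box H/ACA snoRNAs in each library, with exact 95% intervals of the sum. Right, box C/D reads per H/ACA read (blue input, orange pulldown). The pulldown libraries, from 0.327% to 0.878%, span the input range of 0.382% to 0.694%.

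No H/ACA snoRNA was called different between NXF3 pulldown and input. In edgeR's quasi-likelihood test over 1852 genes with Benjamini-Hochberg adjustment at 0.05, 0 of 23 tested members rose (background 0.0% of all genes tested) and 0 fell (background 0.054%). At an unadjusted p under 0.05 there were also 0 higher and 0 lower members, against 2.27% and 3.35% of all genes tested. DESeq2 and limma-voom each called 0 members. Of all 1852 genes, DESeq2 called 1 higher and 1 lower, and limma-voom called 0 higher and 1 lower. The median log2 fold was -0.04 for the 23 members and -0.0039 for all 1852 genes, and 10 members had positive log2 folds (43.5%, against 49.5% of all genes). Both the filter and the test were run on the whole table, and the adjusted p-values of the members lay between 0.825 and 0.999.

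The dominant pair had log2 folds close to 0 with wide intervals. Snora28 had 2477 ± 366 CPM in input libraries against 2455 ± 1175 with NXF3 pulldown, and its log2 fold was -0.013 (SE 0.55, 95% interval -1.21 to 1.18, edgeR). Snora68 had 2233 ± 507 and 2172 ± 717 CPM, with a log2 fold of -0.04 (SE 0.54, 95% interval -1.21 to 1.13, edgeR; SD, n = 3 each). The intervals include changes of more than 2-fold in either direction, so the data do not show that these RNAs were recovered alike. With total-count scaling the log2 folds were 0.055 for Snora28 and 0.11 for Snora68, a setting that also moved the median of all genes tested from -0.0039 to 0.057.

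The member with the smallest p was Snora74a, the U19 snoRNA, a large-subunit guide. It had 41, 25 and 70 counts from input 1 to input 3, against 45, 86 and 52 from pulldown 1 to pulldown 3. In CPM these were 14.2, 12.5 and 15.6 against 30.0, 20.3 and 17.2, so every pulldown library was above every input library. The log2 fold came to 0.64 (edgeR adjusted p = 0.825, unadjusted p = 0.0528, SE 0.30, 95% interval -0.0088 to 1.28). It was the single member without overlap upward, 1 of 23 or 4.35%, against a background of 4.27% of all genes tested. Downward 0 members were free of overlap, against 6.16%. As a percent of gene counts without TMM, 0 members were free of overlap in either direction (background 0.702% upward and 1.94% downward). The non-overlap of Snora74a therefore did not hold under total-count scaling.

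Snora62, the E2 snoRNA in Rpsa and also a large-subunit guide, was next with 53, 27 and 40 counts in input libraries against 51, 114 and 28 with NXF3 pulldown. In CPM it had 18.4, 13.5 and 8.91 in input libraries against 33.99, 26.97 and 9.26 with NXF3 pulldown, where pulldown 3 lay inside the input range. The log2 fold came to 0.77 (edgeR adjusted p = 0.855, SE 0.43, 95% interval -0.16 to 1.70). Snora44 had 10.4, 11.99 and 6.24 CPM in input libraries against 14.7, 17.98 and 7.94 with NXF3 pulldown, and its log2 fold was 0.56 (edgeR adjusted p = 0.917, SE 0.35). Leaving out any 1 library kept the log2 folds of Snora74a, Snora62 and Snora44 positive, from 0.21 to 1.16, with none called. Those of Snora23, Snora64, Snora65, Snora69 and Snora81 likewise stayed negative, from -1.36 to -0.012, with none called.

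The value of Snora21, a large-subunit guide, rested on 1 library. Its counts were 27, 14 and 45 in input and 8, 111 and 27 with pulldown. Scaled, it had 9.36, 6.996 and 10.02 CPM in input libraries against 5.33, 26.3 and 8.93 with NXF3 pulldown. The log2 fold came to 0.70 (edgeR adjusted p = 0.917, SE 0.44) with all libraries and -0.27 without pulldown 2.

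Snora43 had the largest negative value, and it too rested on 1 library. The log2 fold came to -1.08 (edgeR adjusted p = 0.933, SE 0.70, 95% interval -2.60 to 0.43). Without input 3, where its count was 1588, the log2 fold was 0.27, and without pulldown 2 it was -1.74. Snora69, in Rpl39, had 12, 6 and 33 counts in input libraries against 4, 20 and 6 with NXF3 pulldown (log2 fold -0.63, SE 0.42, adjusted p = 0.936, edgeR). Its log2 fold was -0.13 without input 3. Snora65 gave a log2 fold of -0.57 (edgeR adjusted p = 0.96, SE 0.42) and Snora23, in Ipo7, one of -0.49 (edgeR adjusted p = 0.947, SE 0.36).

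Snora81, in Eif4a2, had counts of 54, 35 and 46 in input and 8, 91 and 23 with pulldown, so that its pulldown CPM spread 4.04-fold and enclosed the input values. Its log2 fold was -0.29, and those of the other tested members lay between this value and 0.26 (Snora31). Half-widths of the 95% intervals ran from 0.62 (Snora64) to 1.52 (Snora43), with a median of 0.91, against 0.79 over all genes tested. A log2 fold smaller than its half-width leaves 0 inside the interval. The intervals are not adjusted over genes, so larger changes could also go uncalled. Outside the class, Eml1 had a log2 fold of -1.87 (95% interval -2.93 to -0.82) and was not called (edgeR adjusted p = 0.348). Leaving out pulldown 2 moved most members: without it 20 of the 23 log2 folds were negative and their median was -0.52, while without pulldown 1 the median was 0.074 with 11 negative. The median of all genes tested was -0.013 without pulldown 2 and -0.0078 without pulldown 1.

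**Figure D4:**
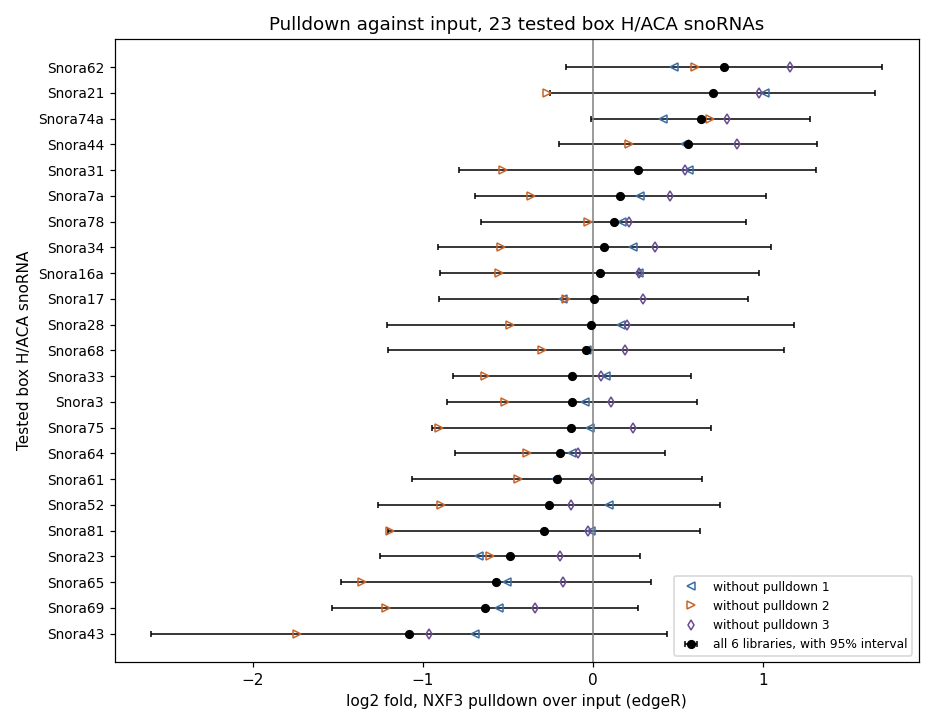
Log2 fold of pulldown over input (horizontal axis) for the 23 tested box H/ACA snoRNAs, with edgeR 95% intervals as black bars and the value without each pulldown library as open symbols. Every interval includes 0, and without pulldown 2 (orange) most points lie to the left, at a median of -0.52, while Snora74a lies at 0.69.

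Host genes and snoRNP proteins gave little signal in these small RNA libraries. GENCODE places 34 of the 36 members within a host gene on the same strand, 11 of them in ribosomal protein genes. For 32 members the host was also counted, and 19 of these had more reads than their host. Eif5, the host of Snora28, had 19, 17 and 23 counts in inputs 1 to 3. In a list of 48 genes known or named as hosts, 20 were tested, 0 rose and 0 fell by edgeR, and the median log2 fold was 0.086 (12 positive, 8 negative). The 3 with the most reads were Eif3a (log2 fold -0.019), Ncl, the nucleolar protein nucleolin (0.07), and Prrc2a (0.40), none of which passed. Of 22 listed snoRNP proteins and assembly factors, 3 were tested, 0 rose and 0 fell by edgeR. These were also the 3 with the most reads: Nop56 (log2 fold -0.25) and Nop58 (-0.15), both C/D proteins, and Nolc1, a nucleolar phosphoprotein (0.92, SE 0.39, edgeR adjusted p = 0.825). The core proteins Dkc1, Nop10, Nhp2 and Gar1 had 57 reads together in all 6 libraries and were below the filter. Products were size-selected, so reads of host and protein-coding genes are from short pieces of RNA. Of the members, 17 lie inside a GENCODE M21 exon of their host. Whether those exons were in the annotation that was counted is not known. The split of reads between member and host is therefore uncertain.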

How the data were processed

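Small RNA libraries (TruSeq small RNA kit) of 3 input and 3 pulldown samples were used. The values are whole-number read counts per gene, deposited by the authors as 1 table per library, with 5 closing summary lines in the form written by HTSeq-count. The submitters' processing notes name Bowtie, Partek and the mm9 build. The sources used here do not give the counting mode, strand setting, annotation or tool versions. Reads assigned to genes were 22.2% to 35.6% of the reads in each table, and the summary lines entered neither library sizes nor tests.

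Genes were filtered with edgeR's filterByExpr (minimum count 10), which left 1852 of 23420. They were scaled by TMM and tested with edgeR 4.0.16 (quasi-likelihood, R 4.3.3), pulldown against input without a block. Adjusted p-values are Benjamini-Hochberg values over all 1852 genes, with a threshold of 0.05. CPM are TMM-scaled. Class shares were compared by exact two-sided permutation tests. P-values measure the spread between 3 libraries a group. DESeq2 1.42.0, limma-voom (limma 3.58.1), other scalings, other filters, a replicate block and leaving out each library were run as alternatives. Structures were predicted with RNAfold 2.7.2.

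Members and gene lists (snoRNP proteins, host genes, and fibroblast, epithelial, leukocyte and adipocyte markers) were chosen with earlier results of these data known. Counts in every library are given for members with a mean of at least 100 counts in input, the 5 with the smallest p, the 5 with the widest ratio of CPM within a group, and those beside the low-count filter. Of the host and snoRNP lists, the 3 genes with the most counts are named. Further members were named after their values were seen, for a shared host or their place in an order. The host gene, position and sequence of Snora68 are not reported here.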

Additional observations from a re-analysis of the deposited data

How the results depend on the processing

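No H/ACA member was called under any alternative that was run, and the smallest adjusted p of any member was 0.387 (without pulldown 1). Few genes of any kind were called. Without pulldown 1, 6 of 2261 genes were higher and 5 lower. Without the low-count filter, 7 of 12025 were higher and 9 lower, the most in each direction under any setting. Some log2 folds changed sign, and the cause was not tested. These were, with total-count scaling (median of all genes 0.057), Snora28 0.055, Snora68 0.11, and with DESeq2, Snora28 0.0062. With TMM from genes outside small RNA classes, the sign changed for Snora17 -0.0033. Scaling to the box C/D total shifted the median log2 fold of all genes to 0.12, with 59.5% of genes positive against 49.5%, and gave Snora28 0.12, Snora61 0.0020, Snora68 0.20. With limma-voom the values were Snora16a -0.23, Snora17 -0.050, Snora31 -0.059, Snora34 -0.13. Without a filter on low counts the value was Snora28 0.016, and restricted to genes averaging 50 counts, which left 13 members and 59.9% of genes positive, Snora28 0.039, Snora68 0.074. Without Snora28 and Snora68, an alternative chosen after seeing the data, the difference in class share was -0.0076 points and that in the log2 ratio to C/D -0.14.

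The deviations of same-numbered input and pulldown libraries had r of 0.03, 0.07 and 0.14 across genes, and the other 6 pairs -0.10 to 0.029. Every library thus correlated best with its own number, but for input 1 by little, 0.030 with pulldown 1 against 0.029 with pulldown 2. The labels do not say that equal numbers mark 1 experiment, so the main test had no block and the block was an alternative. With the replicate block, 0 members were called, the class share difference was still 0.0207 points and the log2 ratio difference 0.0062, and over all genes 1 rose and 3 fell against 0 and 1. The block gave Snora16a -0.078, Snora17 -0.0037, Snora34 -0.089.

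Leaving out each library in turn, the class share difference ran from -0.14 to 0.14 points and the log2 ratio difference from -0.45 to 0.34. Log2 folds that changed sign ran as follows: Snora16a -0.55 to 0.27, Snora17 -0.28 to 0.29, Snora21 -0.27 to 1.01, Snora28 -0.49 to 0.20, Snora3 -0.52 to 0.11, Snora31 -0.53 to 0.56, Snora33 -0.63 to 0.074, Snora34 -0.54 to 0.37, Snora43 -1.74 to 0.27, Snora52 -0.89 to 0.092, Snora61 -0.44 to 0.19, Snora68 -0.30 to 0.19, Snora75 -0.91 to 0.24, Snora78 -0.097 to 0.61, Snora7a -0.36 to 0.45. Without pulldown 2, 7 members changed sign. The depth of pulldown 1, 769570 gene counts, limits the low members most.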

Other observations

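Input levels were also set out by where GENCODE places a member in its host. The median input level was 14.9 CPM for the 17 members inside an annotated exon, of which 14 were tested. It was 2.44 CPM for the 14 intronic members, of which 7 were tested. The 3 members that overlap an exon in part had a median of 1.39 CPM, and none was tested. The ranges overlap, from 0 to 2477 CPM inside exons and from 0 to 75.1 CPM in introns. No test was made of this difference.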
